A study of Mus musculus with 6 samples.

Results

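The cytosolic chaperonin TRiC (also called CCT) is built from 8 related subunits, and the transcripts of all 8 subunit genes were followed in the aorta of miRNA-26b-/- and miRNA-26b+/+ mice. The members were the rows of the read-count table named *Tcp1*, *Cct2*, *Cct3*, *Cct4*, *Cct5*, *Cct6a*, *Cct7* and *Cct8*, 8 of 55341 genes. The set was chosen by gene symbol, but it was proposed with earlier results of this genotype comparison in view, so the genotype values of the subunits are a description and support nothing further. The testis-enriched paralog *Cct6b* is not a member.

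The series holds 6 libraries of RNA from aortic vessels (aortic arch and thoracic aorta), 1 per mouse, from 3 miRNA-26b-/- mice (libraries M2626, M2627 and M2628) and 3 miRNA-26b+/+ mice (M2629, M2630 and M2631). All mice were 8 weeks old and on chow diet. The deletion removed both arms of miRNA-26b from an intron of *Ctdsp1*. It was made in 129/Sv embryonic stem cells, and chimeras were crossed to C57BL/6NCrl mice. Crosses to Flp mice and to mice with a tamoxifen-activated Cre followed, and the Cre was later bred out. The strains are described as mixed 129/Sv-C57BL/6, and the mice elsewhere as being on a C57BL/6 background. Sequence of 129/Sv may therefore remain in the miRNA-26b-/- mice, beside the deleted segment or elsewhere. Its part cannot be told apart from that of the deletion. No subunit gene lies on chromosome 1, which carries the deletion, but this does not cover strain sequence on other chromosomes. The labels call the material endothelial cells, yet the 6 smooth muscle markers summed to between 31457 and 41209 CPM (read counts scaled to a common library size) in every library against 393 to 1613 CPM for the 6 endothelial markers, and the material is called aorta here.

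TRiC is a cage of 2 stacked rings, each with 1 copy of every subunit. It closes over newly made proteins with the help of ATP and is needed to fold actin and tubulin, as well as many proteins with WD40 propellers. Prefoldin hands unfolded actin and tubulin to the cage, phosducin-like proteins modulate it, and the tubulin cofactors take over tubulin after release. In arterial smooth muscle, where actin is among the most abundant proteins, these genes serve the contractile and cytoskeletal apparatus.

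All 8 subunits were well measured, with 2974 to 6951 counts per subunit and library out of 25706728 to 33345037 counts per library. Together they took up 0.111% to 0.135% of the counts of a library. Divided by the length of their annotated exons, their levels were higher than those of 82.8% (*Cct3*) to 94.97% (*Cct2*) of the 16017 genes tested. The spread between mice of one genotype was small. The residual SD on the log2 scale was 0.05 (*Cct2*) to 0.21 (*Cct6a*), with a median of 0.10 against 0.42 over all genes. The value over all genes includes many with far lower counts and was not matched for level.

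The deleted miRNA is shown first because its seed, bases 2 to 8 from the 5′ end (capitals), is what pairs with target transcripts. The 5p arm lies at chr1:74394324-74394344 and the 3p arm at chr1:74394360-74394381, both on the forward strand of GRCm38.p6 (sequences from RefSeq).
mmu-miR-26b-5p: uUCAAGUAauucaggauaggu
mmu-miR-26b-3p: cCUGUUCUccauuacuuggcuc
The read-count table, which comes from a long-RNA library, held 0, 0 and 0 reads for *Mir26b* in M2626, M2627 and M2628 and 0, 20 and 0 reads in M2629, M2630 and M2631. The counts therefore do not check the genotype labels.

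Of the 7 subunits with a coding transcript in GENCODE vM21, only *Cct8* held a match to the 5p seed in the 3′ UTR of its longest coding transcript. This was 1 match of 7 bases (positions 2 to 8 of the miRNA, capitals) on the reverse strand of GRCm38 at chr16:87483817-87483844.
Cct8: ttctcattgtaTACTTGAccatatctat
The 3′ UTRs of these 7 transcripts were 128 to 662 bases long, against a median of 938 bases over 20948 coding genes, of which 18.2% held a match of 7 or 8 bases. *Cct6a* has no coding transcript in this annotation and was not searched. Such a match is a description of the sequence and not a functional site.

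In the genotype comparison the log2 fold change (miRNA-26b-/- against miRNA-26b+/+, edgeR) was below 0 for 8 of 8 subunits, where 48.6% of all genes lay below 0. The values ran from -0.25 (*Cct6a*) to -0.05 (*Cct5*), with a median of -0.16 against 0.01 over all genes. An adjusted p-value under 0.05 was reached by 0 of 8 subunits and by 0.00624% of the genes tested. An unadjusted p-value under 0.05 was likewise reached by 0 of 8 (6.47% of all genes in either direction and 3.07% in the lower direction). DESeq2 and limma voom also called 0 of the 8 after adjustment, against 57 and 3 of 16017 genes. Every 95% confidence interval included 0. The levels of the 2 groups did not overlap for 3 of 8 subunits, *Tcp1*, *Cct2* and *Cct8*, all lower in the miRNA-26b-/- mice, against 5.88% of all genes. This count was 1 (*Cct2*) when levels were scaled by library size only and 7 when M2631 was left out. The share over all genes was not taken for these settings, and with a library left out groups separate more easily. Because the set was proposed from this contrast, nothing is read from these counts.

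**Figure D1:**
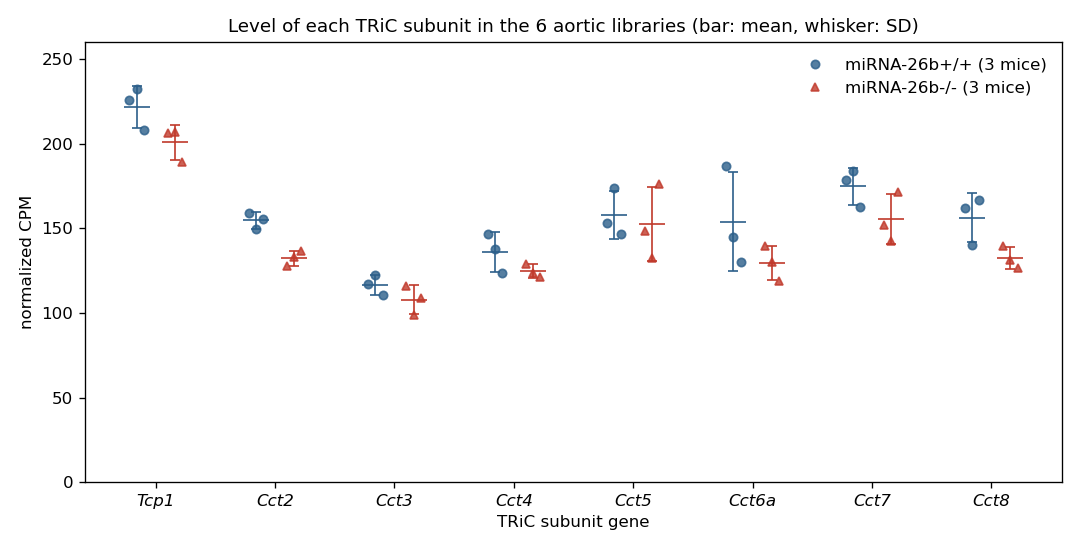
Normalized CPM (vertical axis) of each TRiC subunit gene (horizontal axis) in 3 miRNA-26b+/+ (circles) and 3 miRNA-26b-/- (triangles) libraries, with the mean (bar) and SD (whisker) of each group. The groups are apart for Tcp1, Cct2 and Cct8 and overlap for the other 5 genes. The vertical axis is not divided by gene length, so heights compare libraries and not genes.

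The summed normalized level of the 8 subunits was 1159 CPM in M2626, 1099.5 CPM in M2627 and 1149 CPM in M2628, against 1329, 1285 and 1204 CPM in M2629, M2630 and M2631. The means were 1136 ± 32.0 and 1273 ± 63.3 CPM (SD, n = 3 each), 10.7% lower in the miRNA-26b-/- mice. The groups of this sum did not overlap, with the nearest pair being M2626 and M2631. The sum was not tested, and as its 8 genes were proposed from this contrast, nothing is read from the separation.

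*Tcp1*, *Cct4*, *Cct2* and *Cct5* encode neighbouring subunits on the side of the ring that does most of the ATP binding. *Tcp1* (ENSMUSG00000068039, chr17:12915701-12925067, forward strand, GRCm38) encodes CCT1, the founding subunit named after the mouse t-complex. Its levels were 207, 207 and 189 CPM in the miRNA-26b-/- libraries M2626 to M2628 and 226, 232 and 208 CPM in the miRNA-26b+/+ libraries M2629 to M2631. The gap between the groups was narrow, as M2627 (207.2 CPM) and M2631 (208.2 CPM) nearly met. The log2 fold change was -0.14 (SE 0.14, 95% confidence interval -0.44 to 0.15, adjusted p = 0.917). Without TMM scaling, or with a looser filter on low counts, the groups of *Tcp1* overlapped.

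*Cct2* (ENSMUSG00000034024, chr10:117051001-117063814, reverse strand) encodes CCT2. It gave 128, 133 and 137 CPM in M2626 to M2628 and 159, 149.6 and 155 CPM in M2629 to M2631. This was the clearest separation of the 8, with every miRNA-26b-/- mouse below every miRNA-26b+/+ mouse by more than the spread within either group (132 ± 4.45 against 155 ± 4.86 CPM, SD, n = 3 each). The log2 fold change was -0.22 (SE 0.14, interval -0.53 to 0.08, adjusted p = 0.844), and leaving out any one library kept it between -0.25 and -0.20. The SE of the fit draws on the spread of all genes tested as well as that of *Cct2* (residual SD 0.05).

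*Cct4* (ENSMUSG00000007739, chr11:22990519-23003780, forward strand) encodes CCT4, whose mutation in rats causes a sensory neuropathy. Levels were 129, 123 and 121 CPM in the miRNA-26b-/- mice and 147, 138 and 123.5 CPM in the miRNA-26b+/+ mice, so M2631 lay among the miRNA-26b-/- values. The log2 fold change was -0.13 (SE 0.15, adjusted p = 0.934), and it was -0.07 without M2629 and -0.20 without M2631. *Cct5* (ENSMUSG00000022234, chr15:31590800-31601804, reverse strand) encodes CCT5, also linked to a hereditary sensory neuropathy. Its levels were 149, 133 and 176 CPM against 153, 174 and 147 CPM, and the highest single value belonged to a miRNA-26b-/- mouse, M2628. The log2 fold change of *Cct5* was -0.05 (SE 0.16, interval -0.39 to 0.28, adjusted p = 0.987), and it turned to 0.04 without M2627 and to 0.03 without M2630, while it was -0.17 without M2628 and -0.11 without M2631.

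*Cct3*, *Cct6a*, *Cct8* and *Cct7* encode the subunits of the other side of the ring. *Cct3* (ENSMUSG00000001416, chr3:88297116-88321767, forward strand) gave 116, 99.0 and 109 CPM in the miRNA-26b-/- mice and 117, 123 and 111 CPM in the miRNA-26b+/+ mice. The 2 groups overlapped through M2626, and the log2 fold change was -0.11 (SE 0.15, adjusted p = 0.944). Without M2626, M2627 or M2630 it was -0.17, -0.05 and -0.07. *Cct7* (ENSMUSG00000030007, chr6:85451514-85468475, forward strand), whose product has also been found bound to soluble guanylyl cyclase, gave 152, 143 and 171 CPM against 178, 184 and 163 CPM. Here M2628 lay above M2631, so the groups overlapped, and the log2 fold change was -0.17 (SE 0.15, adjusted p = 0.897), or -0.11 without M2627.

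*Cct8* (ENSMUSG00000025613, chr16:87483326-87495873, reverse strand), the carrier of the seed match to miR-26b-5p, gave 139, 131 and 127 CPM against 162, 140.1 and 167 CPM. The separation was again narrow, with M2626 at 139.4 and M2630 at 140.1 CPM. The log2 fold change was -0.24 (SE 0.15, interval -0.56 to 0.08, adjusted p = 0.833). *Cct6a* (ENSMUSG00000029447, chr5:129786998-129846371, forward strand) had the value farthest below 0, -0.25 (SE 0.17, interval -0.61 to 0.11, adjusted p = 0.853), from levels of 139, 130 and 119 CPM against 187, 145 and 130.3 CPM. A single miRNA-26b+/+ mouse, M2629, stood above the rest, and without it the log2 fold change of *Cct6a* was -0.09.

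**Figure D2:**
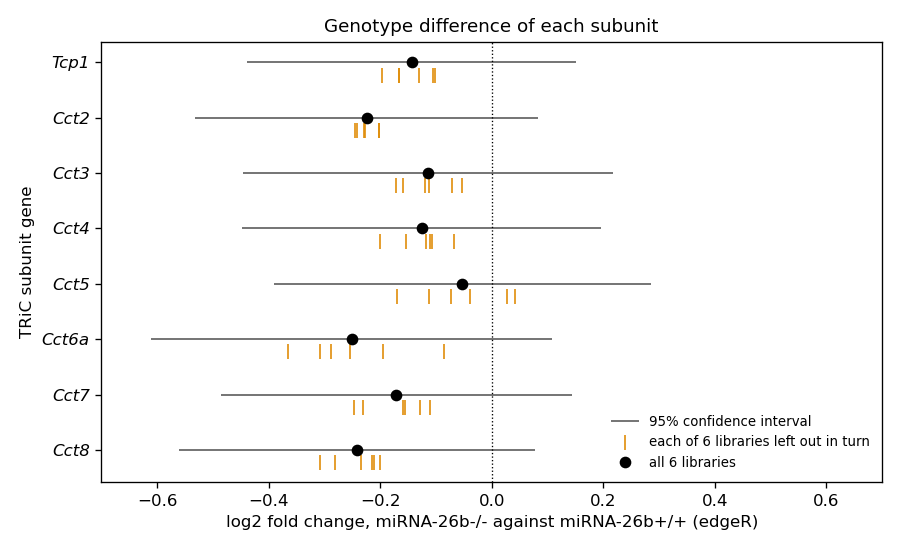
Log2 fold change of each TRiC subunit gene (horizontal axis, miRNA-26b-/- against miRNA-26b+/+) from all 6 libraries (black points) with the 95% confidence interval (grey lines) and the values with each library left out in turn (orange ticks). All points lie below 0 and all intervals cross 0, and only the ticks of Cct5 fall on both sides of 0.

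Levels of the subunits were compared with each other only per length, as each subunit's share of the summed counts per kilobase. Each ring holds 1 of each, so an even share would be 12.5%. Per kilobase of all annotated exons, the length deposited with the counts, the median share over the 6 libraries was highest for *Cct2* (17.9%, range 16.7% to 19.2%) and *Cct5* (17.4%, range 16% to 21.2%). It was lowest for *Cct3* (5.59%, range 5.30% to 6.08%) and *Cct7* (7.59%, range 7.37% to 8.44%). Between them lay *Cct8* (15.0%), *Tcp1* (13.4%), *Cct6a* (12.3%) and *Cct4* (9.98%). The highest subunit of a library exceeded the lowest by 2.95-fold to 3.73-fold.

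Not every step of this order was clear of the spread between mice. *Cct2* exceeded *Cct5* in 3 of 6 libraries, so these 2 could not be ordered. *Cct5* over *Cct8*, *Cct8* over *Tcp1* and *Tcp1* over *Cct6a* each held in 5 of 6 libraries. *Cct6a* over *Cct4*, *Cct4* over *Cct7* and *Cct7* over *Cct3* held in 6 of 6.

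The length used for the shares of *Cct3* and *Cct7* was long beside a single transcript. It joins the exons of all transcripts of a gene. It was 3.22 times the longest transcript for *Cct3* (6370 against 1977 bases) and 2.78 times for *Cct7* (6778 against 2441 bases), 2.06 times for *Tcp1*, 1.69 times for *Cct4* and 1.29 to 1.49 times for the other 4. Per kilobase of the longest transcript (for *Cct6a*, a non-coding one), the shares drew together. They ranged from 9.81% (*Cct4*) to 16.1% (*Tcp1*), with *Cct5* at 15.1%, *Cct2* at 13.6%, *Cct7* at 12.4%, *Cct8* at 11.2%, *Cct6a* at 10.5% and *Cct3* at 10.5%, and the highest exceeded the lowest by 1.56-fold to 1.96-fold. *Cct4* lay below *Cct3* in 6 of 6 libraries on this scale and above it on the other, and each other pair of neighbours in this order kept its place in 2 to 5 of 6 libraries. Which length is right for these reads was not tested, since the transcripts in use cannot be told from gene counts. Reads shared with neighbouring genes, described below, were not taken off on either scale. At most they would make up 36.1% of the counts of *Tcp1* and 33.2% of those of *Cct8* in a library. The places of *Tcp1* and *Cct8* in the order are therefore not settled by length alone.

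The shares of the genotypes overlapped for each of the 8 subunits on either scale. Per kilobase of all exons, the mean share differed between the groups by between -0.77 percentage points (*Cct8*) and 1.40 percentage points (*Cct5*, 18.6 ± 2.31% in miRNA-26b-/- and 17.2 ± 1.52% in miRNA-26b+/+ mice, SD, n = 3 each). The high mean of *Cct5* came from M2628, where its share was 21.2%.

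**Figure D3:**
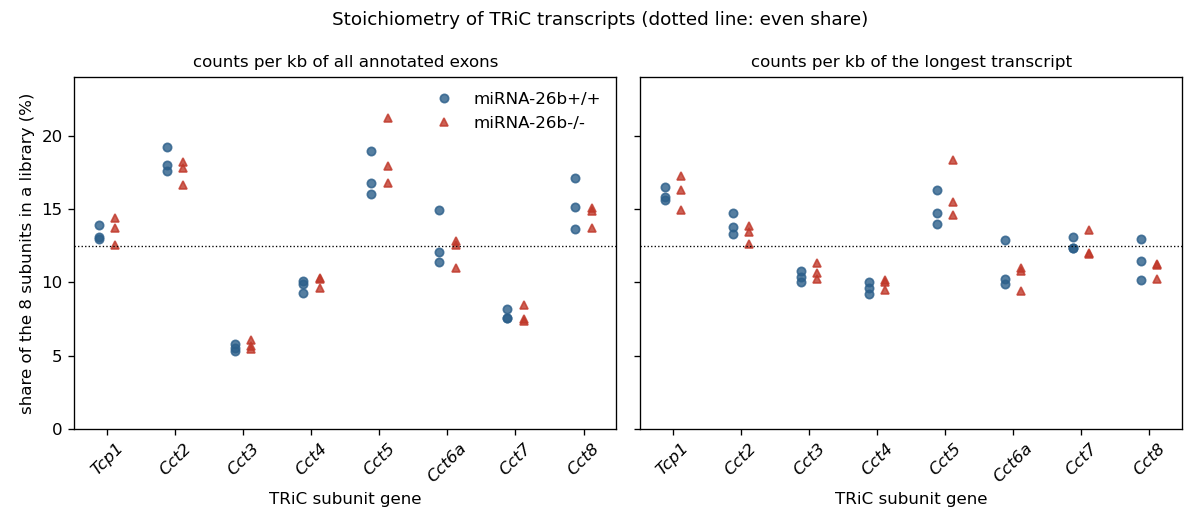
Share of each TRiC subunit gene in the summed counts per kilobase of the 8 genes (vertical axis, %) in 3 miRNA-26b+/+ (circles) and 3 miRNA-26b-/- (triangles) libraries, per kilobase of all annotated exons (left) or of the longest transcript (right). The dotted line is the even share of 12.5%. Cct3 and Cct7 lie far below it on the left and near it on the right, and the 2 genotypes overlap for every gene.

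Reads were counted without strand and given to every gene whose exons they overlap, so neighbours on the opposite strand share reads with some subunits. *Tcp1* shares 571 exon bases with *Acat3* and 141 with *Mrpl18*. *Cct6a* shares 452 bases with *Psph*, *Cct7* shares 214 with *Pradc1* and *Cct8* shares 192 with *Usp16*. *Cct2*, *Cct3*, *Cct4* and *Cct5* share no exon base with another gene. *Acat3* held 622 to 1507 reads per library, *Mrpl18* 597 to 1048, *Usp16* 681 to 1229, *Psph* 190 to 358 and *Pradc1* 109 to 389.

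If every read of these neighbours had come from the shared bases, they would make up 22.9% to 36.1% of the counts of *Tcp1*, 15.4% to 33.2% of *Cct8*, 5.35% to 9.02% of *Cct6a* and 2.0% to 9.99% of *Cct7*. With all of them taken off, a bound chosen after seeing the data and given without a test, the log2 ratios of the group means were -0.18 for *Tcp1*, -0.41 for *Cct8*, -0.23 for *Cct6a* and -0.21 for *Cct7*. The groups of *Tcp1* and *Cct8* still did not overlap. *Gm26130*, a short gene within the exons of *Tcp1*, held 0 reads in every library. So did *Snora15*, which shares 102 of its 131 bases with the exons of *Cct6a*. The annotated span of *Cct6a* also holds a gap of 50.1 kb with no exon, after which 924 of its 3620 exon bases lie.

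Processed pseudogenes took few reads. Of the 50-base words of the longest transcript, *Cct2* and *Cct5* shared none with another gene, and those of *Cct3* (2.13%) and *Cct4* (0.66%) were shared with pseudogenes holding at most 6 reads in a library. For *Tcp1* 22.2% of the words recur elsewhere, mostly in *Acat3* and *Acat2*. For *Cct6a* this was 16.8%, for *Cct7* 8.28% and for *Cct8* 6.10%, mostly in the overlapping neighbours.

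Promoter sequences (250 bases before to 50 bases after the start site, RefSeq, GRCm38.p6) were at hand for 7 of the 8 subunits, with 2 start sites each for *Cct2* and *Cct5*, and *Cct4* had no entry. On either strand, the Sp1-type box GGGCGG was found in 8 of these 9 promoters, against 35.7% of 32851 promoters of the same length. It was also found in 15 of 17 promoters of cytosolic heat shock chaperones. The GC content of the 9 promoters was 47.3% (*Cct5*) to 67.7% (*Cct7*), against a median of 52.7% over all promoters. The part of GC content in the matches was not tested. CCAAT was found in 4 of 9 (37.4% of all), the ETS-type word CCGGAAG in 3 of 9 (8.86%) and CACGTG in 0 of 9 (7.15%). A heat shock element of 2 units, GAANNTTC or TTCNNGAA, was found in 3 of 9 (15.1% of all), 1 each of *Cct2*, *Cct5* and *Cct6a*. The 2 forms can overlap each other where the units continue. These counts are descriptions of letters in a window.

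*Hsph1* was the gene whose pattern over the 6 libraries was most like the mean of the subunits, as given below. The windows of the 3 matches are shown with the element in capitals beside one from *Hsph1*. They lie at chr10:117063399-117063428, chr15:31601862-31601891, chr5:129787369-129787398 and chr5:149636351-149636380 in that order, written on the strand of the gene.
Cct2: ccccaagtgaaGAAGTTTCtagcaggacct
Cct5: acagcggccgaTTCCAGAAgctactctgcg
Cct6a: gcgtaagacttTTCGAGAAgaccccgcaga
Hsph1: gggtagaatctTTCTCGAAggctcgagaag
Of 18 cytosolic heat shock chaperones, 13 had a promoter entry, with 17 promoters. One or the other element was found in 9 of these 17 promoters, against 3 of 9 for the subunits and 15.1% of all. Counted by gene, this was 8 of 13 chaperones and 3 of 7 subunits.

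The likeness of other genes to the subunits was measured as Pearson's r of log2 CPM with the mean log2 CPM of the 8 subunits over the 6 libraries, among 9768 genes with a mean of at least 10 CPM. Genes were selected for a high value, and the libraries fall into 2 genotypes, so the coefficients are given as a description with no p. The 5 highest were *Hsph1* (r = 0.984), which encodes the nucleotide exchange factor HSP110, *Cr1l* (0.979), a regulator of complement, *Tapbpl* (0.977), an editor of MHC class I peptides, *Hif1an* (0.971), the asparagine hydroxylase of HIF, and *Pip5k1a* (0.969), a phosphoinositide kinase. Spearman's rho was 1 for each of them. Among the 8 subunits themselves, the median r over 28 pairs was 0.565 across the 6 libraries. It was 0.091 after the mean of each group was taken off, with 17 of 28 pairs above 0. *Cct5* had r = 0.23 with the mean of the other subunits. The subunits thus shared little of a pattern within a genotype, and their mean carries the difference between the groups.

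*Hsph1* gave 313, 246 and 272 CPM in M2626 to M2628 and 517, 412 and 367 CPM in M2629 to M2631. Its groups did not overlap, but its selection had fixed this. The groups of the subunit mean were apart, and *Hsph1* ranked the 6 libraries in the same order as that mean. The log2 fold change of *Hsph1* was -0.65 (SE 0.16, adjusted p = 0.640), farther from 0 than that of any subunit.

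The partners of TRiC did not share one direction. Of the prefoldin and phosducin-like co-chaperones, 9 of 10 were tested. A positive value was found for 8 and a negative one for 1, with a median log2 fold change of 0.08 and 0 at an unadjusted p-value under 0.05. The most abundant per length was the prefoldin subunit *Pfdn5* (127 ± 23.6 against 119.7 ± 15.5 CPM, SD, n = 3 each), and the smallest p-values were those of *Pfdn2* (log2 fold change 0.21, adjusted p = 0.931) and *Pfdn1* (0.18, adjusted p = 0.937). The 5 tubulin cofactors had a median of -0.15, with 0 of 5 at an unadjusted p-value under 0.05. They included *Tbcb* (-0.18, adjusted p = 0.937), *Tbcd* (-0.15, adjusted p = 0.958) and *Tbca*, the most abundant per length (0.14, adjusted p = 0.965).

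Among 19 actin and tubulin genes, whose products fold in TRiC, 8 lay below and 11 above 0, with a median log2 fold change of 0.06. *Acta2*, the smooth muscle actin, was the most abundant per length (15910 ± 1619 against 16459 ± 1607 CPM, SD, n = 3 each, log2 fold change -0.05, adjusted p = 0.977). Only *Acta1* and *Tubb3* had an unadjusted p-value under 0.05, 2 of 19 and both on the higher side (3.4% of all genes). *Acta1*, the skeletal muscle actin, gave 9.57, 25.3 and 0.32 CPM against 3.26, 0.66 and 1.75 CPM, and *Tubb3*, the neuronal tubulin, gave 0.55, 49.96 and 1.56 CPM against 0, 8.93 and 0 CPM. In both genes M2627 was the highest library and the groups overlapped. The 13 WD40 and other substrates had a median of 0.13, with 3 below and 10 above 0. Their smallest p-value was that of *Fzr1* (log2 fold change 0.57, adjusted p = 0.769), an activator of the anaphase-promoting complex, before *Bbs2* (0.42, adjusted p = 0.858). Only *Fzr1*, 1 of 13, had an unadjusted p-value under 0.05, on the higher side (3.4% of all genes). For *Fzr1*, *Vhl* and *Bbs2*, 3 of 13, the groups did not overlap on the higher side. The share of all genes on that side was not taken. *Gnb1*, a G protein beta subunit and the most abundant per length, had -0.12 (adjusted p = 0.931).

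The median of the cytosolic heat shock chaperones was lower than that of the subunits, a difference that was not tested, while single members such as *Hsf1* (0.16) lay above every subunit. This list had been chosen with earlier results of these libraries known and is not independent evidence. Of 18 genes, 15 lay below 0, 9 had an unadjusted p-value under 0.05 on the lower side (3.07% of all genes) and 10 had groups that did not overlap on that side (5.88% of all genes), with a median log2 fold change of -0.51 (-0.31 without M2629). After adjustment over all genes 0 of 18 passed with edgeR (1 of 16017 genes tested). With DESeq2 6 passed (57 of 16017), and with limma voom 1 passed (3 of 16017). The smallest adjusted values were those of the small heat shock protein gene *Hspb1* (165 ± 15.8 against 314 ± 23.3 CPM, SD, n = 3 each, log2 fold change -0.93, adjusted p = 0.0822) and of *Hspa4l* (-1.04, adjusted p = 0.110), an HSP110 family member. The most abundant per length, *Hsp90ab1*, had -0.51 (adjusted p = 0.640). Of the other chaperonins, 5 of 6 were tested (*Cct6b* was too low), with a median of 0.07. *Hspd1*, the mitochondrial HSP60, had -0.65 (adjusted p = 0.731) with groups that did not overlap, whereas its partner *Hspe1* had 0.19 (adjusted p = 0.959).

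**Figure D4:**
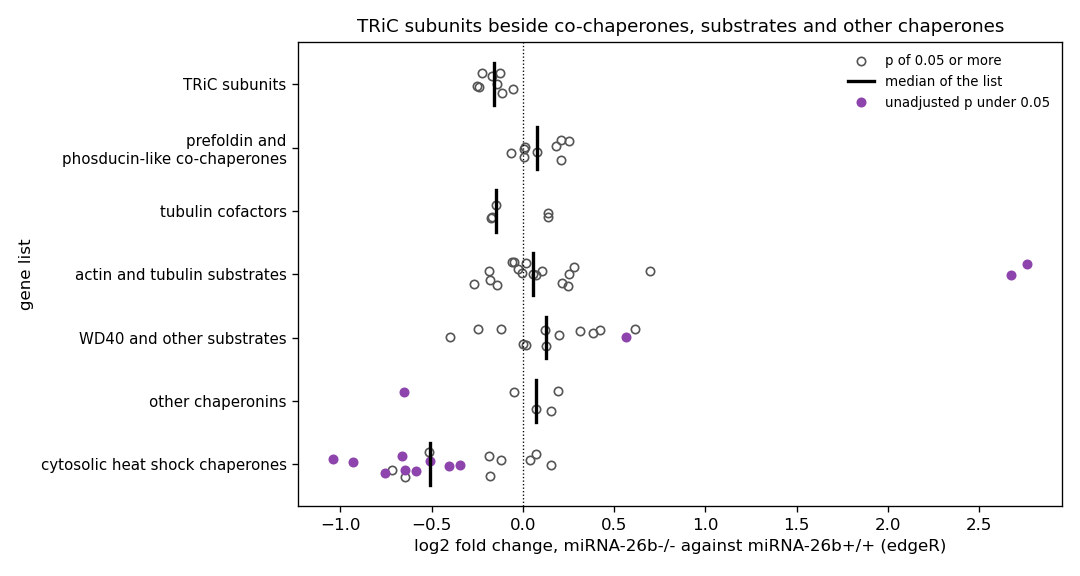
Log2 fold change (horizontal axis, miRNA-26b-/- against miRNA-26b+/+) of single genes in the TRiC set and 6 lists of related genes (rows), with filled points for an unadjusted p-value under 0.05 and a black line at each median. The 8 TRiC genes lie close together between -0.25 and -0.05, the cytosolic heat shock chaperones spread farther to the left, and Acta1 and Tubb3 lie far to the right.

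Markers of other cell types differed between the libraries as well. The 6 Schwann cell markers summed to 359 to 550.4 CPM in M2626 to M2628 and to 225 to 301 CPM in M2629 to M2631, without overlap, and 6 of 6 had an unadjusted p-value under 0.05 on the higher side (3.4% of all genes). The 6 skeletal muscle markers summed to 8.28 to 67.4 CPM against 1.95 to 12.4 CPM, and 4 of 6 had such a p-value on that side, against the same 3.4%. The 6 endothelial markers summed to 393, 440.2 and 1613 CPM in M2626, M2627 and M2628 against 1128 to 1505 CPM, and the groups of the smooth muscle, fibroblast, adipocyte, brown fat, cardiac muscle, macrophage, lymphocyte and proliferation sums overlapped, as did those of the sympathetic neuron markers. No marker was at 0 in all 6 libraries apart from 1 lymphocyte marker. The part of cell composition in the subunit levels was not tested, and in bulk tissue fewer cells of a type and less RNA per cell cannot be told apart.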

How the data were processed

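Per the labels and the methods, RNA of aortic vessels was made into libraries with a TruSeq RNA kit and sequenced, and reads were aligned with STAR to GRCm38. Per the file headers, the deposited values are raw read counts per gene name, made by the authors with featureCounts 1.6.4 over the exons of GENCODE vM21, without strand and with a read over several genes counted for each. The methods name release M23 of that annotation, and the lengths, transcripts and UTRs used here are those of vM21. The authors also deposited a table with counts, log2 CPM and their own comparison for fewer genes, which was not used. Each library is 1 mouse. The p-values rest on the spread between 3 mice per group, with each gene's spread drawn toward that of all genes tested.

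A gene entered the test if its counts summed to 2 or more and it passed 1 CPM in 2 or more libraries (16017 of 55341 genes). Counts were scaled by TMM and tested with edgeR 4.0.16 (quasi-likelihood, prior count 0.125) in R 4.3.3, with Benjamini-Hochberg adjustment over all genes tested. The procedure was tested on simulated counts. Alternatives were library size, upper quartile, DESeq2 1.42.0, limma voom 3.58.1, the earlier edgeR method, 2 other filters, a prior count of 2 and leaving out each library. CPM values of single genes and of the subunit sum use TMM-scaled library sizes, and the marker sums use library sizes without TMM. Shares use counts per kilobase. Each subunit had 2974 or more counts per library, and intervals from the fit cover counting error and this moderated spread between mice.

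The members, lists and tests were chosen with earlier results of these data known. The genes named are the 8 subunits, their exon neighbours, the 2 genes with the smallest p-value and the most abundant gene per kilobase of each list, and the 5 genes most like the subunits.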

Additional observations from a re-analysis of the deposited data

How the results depend on the processing

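All 14 alternatives gave 0 of 8 subunits past the adjusted threshold and a median log2 fold change of the 8 subunits below 0, from -0.20 to -0.12 as single libraries were left out and between -0.16 and -0.14 otherwise. With each library left out, 7 to 8 subunits lay below 0. The exception was *Cct5*, which ranged from -0.17 to 0.041 and was above 0 without M2627 (0.041, adjusted p = 0.989) and without M2630 (0.027, adjusted p = 0.998). The number of subunits whose groups did not overlap was 1 with library size only and 2 to 7 with each library left out, reaching 7 without M2631. No share over all genes was taken beside these numbers, and with a library left out groups separate more easily. Over all genes, 57 passed the adjusted threshold with DESeq2, 3 with limma voom, 0 with the earlier edgeR method and 82 without M2628, against 1. Of the related genes, 6 passed with DESeq2 (*Hsp90ab1*, *Hspa4l*, *Hspa8*, *Hspb1*, *Hsph1* and *Stip1*), 1 with limma voom (*Hspb1*) and 0 to 5 with each library left out, reaching 5 without M2628. With single libraries left out, the median log2 fold change ranged from -0.042 (without M2627) to 0.13 for the actin and tubulin genes. It ranged from -0.15 to 0.014 (without M2629) for the tubulin cofactors. For the prefoldin and phosducin-like co-chaperones it ranged from -0.026 (without M2631) to 0.17, and for the other chaperonins from -0.33 (without M2631) to 0.33. For the WD40 and other substrates it was 0.064 without M2626, 0.20 without M2627, 0.22 without M2630 and 0.21 without M2631, against 0.13, and for the cytosolic heat shock chaperones it ranged from -0.59 to -0.31 (without M2629). The median ratio of the highest to the lowest subunit was 3.37 per kilobase of all exons (3.35 to 3.40 with each library left out), 1.71 per kilobase of the longest transcript and 1.89 without division by length. In each case the cause was not tested, apart from the length itself for the ratio. Coding lengths from RefSeq proteins were not used here. No paired analysis was possible because the labels number no replicates, and the numbers given to the mice only follow the order of the samples.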
